A study of Homo sapiens with 3 samples.

Results

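The stretch described is 5.8S rRNA together with domain I of 28S rRNA, followed through 3 eCLIP and Input libraries of METTL5 from human 293T cells. All positions of 5.8S and the first 8.58% of the 5070 positions of 28S were taken from the deposited table, 593 of its 7218 positions. The rule uses positions only. Both eCLIP libraries, replicates 1 and 2, came from 293T cells with the genotype label METTL5-HA stable cell lines, and the single Input library came from 293T cells labelled WT. All cells were crosslinked with UV light while plated. The labels give the same protocol for all 3 libraries, with anti-HA beads for the pulldown, so pulldown and genotype differ together between eCLIP and Input and cannot be told apart. 293T is an established line from human embryonic kidney.

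METTL5 is the methyltransferase that places N6-methyladenosine on 18S rRNA of the small ribosomal subunit. 5.8S and 28S belong to the large subunit. Both are cut from a common precursor in which 5.8S lies before 28S, separated by an internal spacer, and in the mature subunit 5.8S stays base-paired to 28S. The 3′ end of 5.8S pairs with the 5′ end of 28S, and the 5′ end of 5.8S pairs with a stretch further into domain I, so the pair folds as a single structural unit, the counterpart of the first domain of bacterial 23S rRNA. In eCLIP, RNA that remains attached to the precipitated protein is sequenced, and the depth at a position is the number of reads that cover it. The question was whether domain I, which pairs with 5.8S, was covered like 5.8S or like the remainder of 28S.

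Summed depth was 17574237 and 6930845 in eCLIP replicates 1 and 2 and 42783485 in Input. Depth nowhere reached 8000, with maxima of 7465, 7672 and 7986. The sources used here do not say whether recorded depth was limited. In domain I, Input held between 7576 and 7642 reads at every position from 29 to 75 and between 6303 and 7642 from 51 to the end of domain I. Input varied less along these positions than eCLIP did. If Input reads were left out at a limit, ratios on domain I scaled to 5S are too high, while those on 5.8S, with at most 1157 reads, are affected only through the scaling. With 2 eCLIP libraries and 1 Input library, an exact permutation test over libraries cannot give p below 0.333. The labels do not state whether both eCLIP libraries had a culture of their own. The p-values reflect no more than how far these libraries differ, which may be technical. In edgeR's tests of windows, given below, that difference was pooled over windows and was not that of the window named. No pulldown from untagged cells was among the samples used here.

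**Figure D1:**
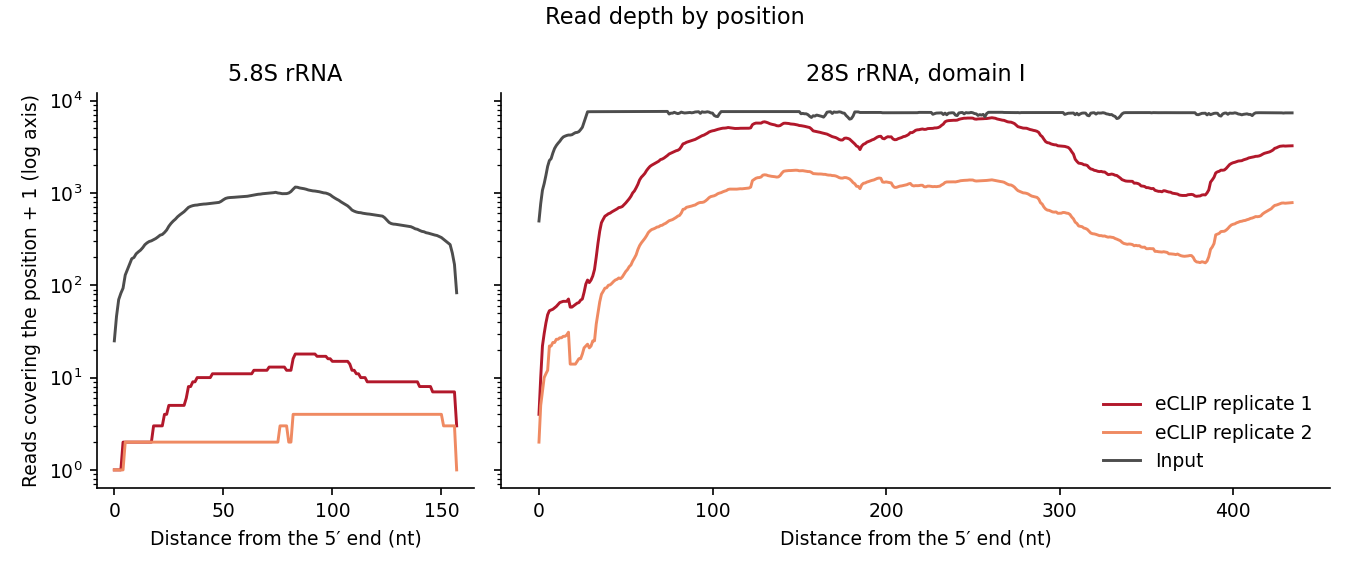
Number of reads covering each position plus 1, on a log axis, against the distance from the 5′ end of 5.8S (left) and of 28S (right, domain I), with a line for each library. On 5.8S the eCLIP lines stay at 17 reads or fewer under an Input line that reaches 1157, while on domain I the eCLIP lines climb to 6530 and 1763 reads.

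5.8S was nearly empty in both eCLIP libraries. Its mean depth was 8.53 and 1.90 reads in eCLIP replicates 1 and 2, compared with 640.8 in Input. Both eCLIP libraries lay far below Input at every named position. At position 40, eCLIP replicates 1 and 2 had 9 and 1 reads and Input 747. At position 79 they had 12 and 2 against 982, and at position 120 they had 8 and 3 against 579. Depth was highest at position 84 in replicate 1 and in Input, with 17 and 1157 reads, and first reached its maximum of 3 reads at position 83 in replicate 2.

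A read spanned 75 nt, the distance at which steps up and steps down of depth matched best within 5.8S and within domain I in each of the 3 libraries. Summed depth divided by 75 gave about 18 and 4 reads of 5.8S in eCLIP replicates 1 and 2, compared with 1350 in Input. 5.8S thus took 0.00767% of summed depth in replicate 1 (exact 95% binomial interval 0.00455% to 0.0121%). In replicate 2 it took 0.00433% (0.00118% to 0.0111%) and in Input 0.237% (0.224% to 0.2496%). The eCLIP intervals overlap each other and lie below that of Input. Such intervals hold counting error alone, and with PCR copies of a molecule they would be wider.

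The TMM-scaled log2 ratio of eCLIP to Input on 5.8S was -4.71 in replicate 1 and -5.12 in replicate 2. The mean, -4.92 ± 0.296 (SD, n = 2), is 30.2-fold lower in eCLIP. Counts summed in windows of 50 nt were tested with edgeR's quasi-likelihood test over all 147 windows of the table. All 4 windows of 5.8S were lower in eCLIP, where 34.7% of all windows tested were lower. That share was uneven: 35 of the 38 windows of 18S (92.1%), 10 of 93 of 28S after domain I and 0 of 3 of 5S were lower. Lower windows were thus not particular to 5.8S. The windows of 18S had edgeR log2 fold changes from -5.22 to -0.40, with a median of -3.08, compared with -4.74 for 5.8S. The edgeR log2 fold change was -5.44 for positions 1 to 50 (adjusted p = 3.16e-12) and -5.18 for positions 51 to 100 (adjusted p = 5.73e-13). Positions 101 to 150 had a value of -4.30 (edgeR adjusted p = 1.53e-09), and the last 8 positions had -3.87 (edgeR adjusted p = 1.86e-11). The 4 calls also held with DESeq2's Wald test, in which 38.1% of all windows were lower. These windows share the about 18 and 4 reads of 5.8S in eCLIP, and a read counts once per position covered. They are therefore not 4 separate results. With depth divided by 75 they were still lower, with edgeR adjusted p from 1.33e-15 to 0.000901 for the last 8 positions.

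The ratio differed along 5.8S. From 1 to 79 the eCLIP libraries averaged 6.62 and 0.975 reads, compared with 634.2 in Input, and the log2 ratio was -5.56 ± 0.717 (SD, n = 2). From 80 to the 3′ end, the part that holds the strand paired with the 28S 5′ end, they averaged 10.4 and 2.82, compared with 647.3, and the log2 ratio was -4.50 ± 0.097 (SD, n = 2). The second stretch had the less negative ratio in both replicates. At 18 and 4 reads in all, this difference rests on a handful of reads and was not tested.

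Domain I of 28S was covered well in the same libraries. Mean depth was 3180 and 778.1 reads in eCLIP replicates 1 and 2 and 7122 in Input, which is about 18442, 4513 and 41309 reads. Per position, domain I was covered 373.0 times as deeply as 5.8S in eCLIP replicate 1 and 409.8 times in replicate 2, against 11.1 times in Input. Of the reads on 5.8S and domain I together, 5.8S took 0.0973% in replicate 1 (exact 95% interval 0.0578% to 0.154%), 0.0886% in replicate 2 (0.0241% to 0.227%) and 3.16% in Input (3.0% to 3.34%). Both eCLIP values lay more than an order of magnitude under that of Input. If depth is missing from domain I at a limit in Input, this gap is too wide.

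The log2 ratio of domain I was 0.36 and 0.08 in replicates 1 and 2, that of 5.8S -4.71 and -5.12, and that of 28S after domain I 0.66 and 1.14. Domain I therefore lay 5.14 ± 0.0959 (SD, n = 2) above 5.8S on the log2 scale and 0.68 ± 0.536 (SD, n = 2) below the remainder of 28S, differences in which the scaling cancels. The gap to 5.8S was 5.07 in replicate 1 and 5.20 in replicate 2, and the gap to the remainder of 28S was -0.30 and -1.06. As a whole, domain I lay nearer to the rest of 28S than to its partner 5.8S in both replicates. A limit on Input depth would not cancel in these differences. If Input was limited on domain I, the gap to 5.8S is too large. The gap to the rest of 28S, where Input may have been limited too, could then be off in either direction. This was not tested. Over libraries, the exact two-sided permutation test gave p = 0.333 for domain I against 5.8S, the smallest value it can give, and p = 0.667 for domain I against the rest of 28S. The sign of the ratio of domain I by itself was not settled, since its mean of 0.22 ± 0.20 (SD, n = 2) with TMM was -0.014 scaled to 5S, -0.22 scaled to library totals and -0.63 scaled to the 28S total.

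Relative to the rest of 28S, domain I stood at 0.960 times its mean depth in replicate 1, 0.567 times in replicate 2 and 1.18 times in Input. With 8.58% of its length, domain I held 8.26% and 5.06% of 28S depth in eCLIP and 9.99% in Input. Both eCLIP shares were under that of Input, but the replicates differed from each other by more than replicate 1 differed from Input. Among the 11 consecutive stretches of that length along 28S, 2 stretches had a lower log2 ratio than domain I. The next stretch, up to position 870, had log2 ratios of 0.78 and 0.66, above domain I in both replicates by 0.42 and 0.58. At the boundary itself there was no step, with 3242, 785 and 7371 reads at the last position of domain I and 3193, 778 and 7366 at the first position after it, in eCLIP replicate 1, eCLIP replicate 2 and Input in that order. Neighbouring positions lie under nearly the same reads, so this cannot show whether coverage changes with the domain.

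**Figure D2:**
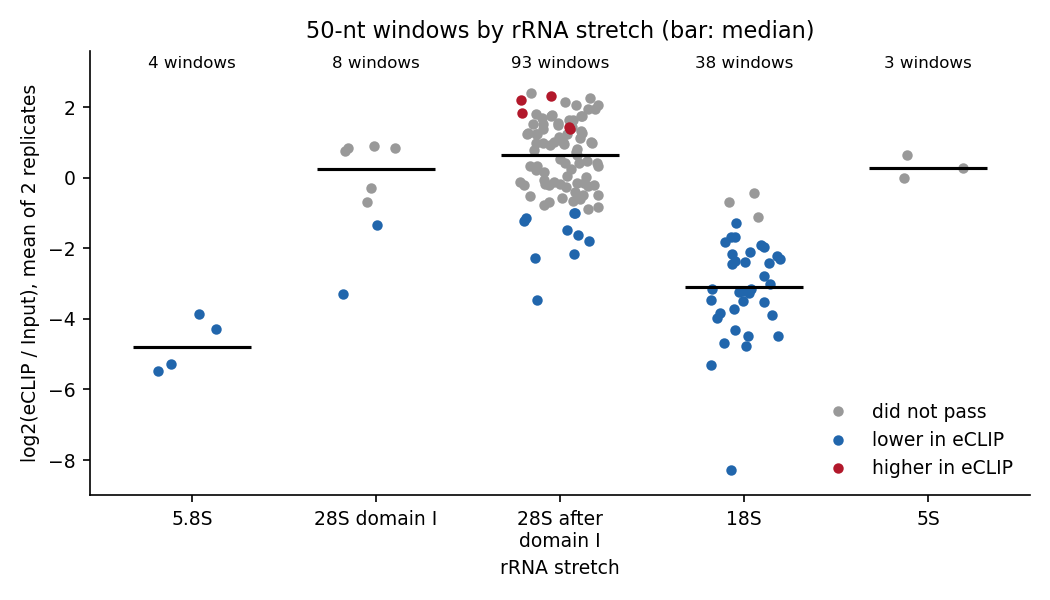
Mean log2 ratio of eCLIP to Input over both eCLIP replicates for each 50-nt window (points), grouped by rRNA stretch, with a bar at the median of each group and colours for windows that were lower, higher or did not pass edgeR's test. The 4 windows of 5.8S lie between -5.46 and -3.85, while 7 of the 8 windows of domain I lie between -1.34 and 0.90 and the lowest, 1 to 50, at -3.29. The window that crosses the end of domain I is not drawn.

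Within domain I, depth depended strongly on the distance from the 28S 5′ end. At position 1 the eCLIP replicates had 3 and 1 reads and Input had 496. At position 25 there were 68, 15 and 4854 reads. At position 50 there were 744, 131 and 7613 reads, and at position 100 there were 4652, 912 and 7366. Position 50 in Input thus stood at 126% of the mean depth of 28S after domain I, and in eCLIP at 22.5% and 9.55%.

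Set against the mean depth of 28S after domain I in the same library, Input reached 50% of it at position 10 and 100% at position 28. eCLIP replicate 1 reached these levels at positions 63 and 84, and replicate 2 at positions 86 and 125. Both eCLIP libraries were later than Input by more than they differed from each other. If Input depth was limited, Input may have reached these levels too early. Ratios further into domain I may then be too high against those at its start. This was not tested. Input had its largest rises of domain I at positions 28 and 29, by 848 and 885 reads, where replicate 1 gained 19 and 11 reads and replicate 2 gained 1 and 1. The first 50 nt are 11.5% of the length of domain I and held 8.54% of its depth in Input, but 0.853% and 0.661% in eCLIP replicates 1 and 2.

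The 28S 5′ end was the single stretch of domain I with ratios in the range of 5.8S. Over the first 30 nt, the eCLIP libraries averaged 59.4 and 18.0 reads and Input 3749, and the log2 ratio was -4.44 ± 0.0169 (SD, n = 2), or 21.8-fold lower. In bins of 10 nt, the ratios there lay between -4.85 and -3.93, and those of the 16 bins of 5.8S between -5.77 and -3.85. The 30 nt were not set in advance, and their 3 bins are those at or below the highest bin of 5.8S. Replicates 1 and 2 had -4.06 and -3.80 in the bin 1 to 10, but -4.62 and -5.08 in the bin 21 to 30. These opposite differences make the SD over the 30 nt small. Of the 44 bins of domain I, the 5 from 1 to 50 were nearer to the mean ratio of 5.8S than to that of 28S after domain I. The mean ratio first exceeded that of 28S after domain I in the bin 121 to 130, and 9 of the 44 bins lay above it.

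The window from 1 to 50 was lower in eCLIP by edgeR, with log2 ratios of -2.96 and -3.61 in replicates 1 and 2 and an edgeR log2 fold change of -3.25 (adjusted p = 3.29e-09). Only 1 of the 93 windows of 28S after domain I had a lower mean ratio. Its log2 ratio minus that of the rest of domain I was -3.44 in replicate 1 and -3.81 in replicate 2, on average -3.62 ± 0.262 (SD, n = 2). The exact two-sided permutation test over libraries gave p = 0.333, its smallest value. If a limit on Input depth acted mainly past the first 50 nt, the difference of -3.62 is too negative. The window from 1 to 50 still lay above 5.8S, by 1.74 and 1.51 on the log2 scale.

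**Figure D3:**
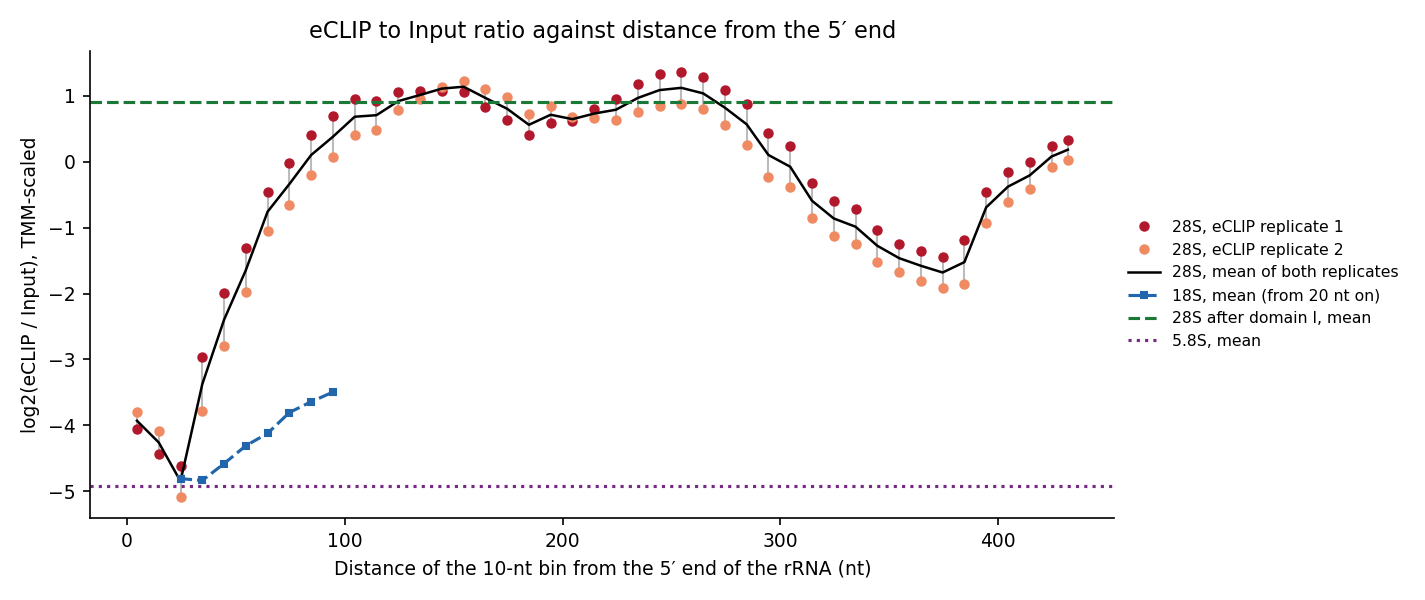
TMM-scaled log2 ratio of eCLIP to Input in 10-nt bins against distance from the 5′ end, for domain I of 28S in each replicate (points joined by a grey line) with their mean (black), and for the 18S 5′ end from the bin 21 to 30 on (blue squares), with horizontal lines at the means of 28S after domain I and of 5.8S. The 28S bins start near the line of 5.8S, first pass the line of 28S after domain I at the bin 121 to 130 and lie well below it again at the low near 380, at a mean of -1.68.

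Because a read cannot extend past the end of an RNA, the 18S 5′ end was set beside that of 28S. The first 50 nt of 18S averaged 12.9 and 3.68 reads in eCLIP, compared with 988.8 in Input, and had a log2 ratio of -4.76 ± 0.0433 (SD, n = 2). Set against the rest of 18S the difference was -2.41 in both replicates. The first 50 nt of 18S held only about 9 and 2 reads in eCLIP replicates 1 and 2, and 16 positions had 0 reads in replicate 2. The small SD and the equal differences therefore do not show that these values are precise. For the first 50 nt of 28S against the rest of 28S it was -3.61 in replicate 1 and -4.69 in replicate 2. The difference between these, 28S minus 18S, was -1.19 and -2.28, on average -1.74 ± 0.767 (SD, n = 2). Its size depended on the length taken, since it became -0.68 ± 0.876 (SD, n = 2) with the first 75 nt. The 3′ end of 28S had ratios of the opposite sign: its last 50 nt had log2 ratios of 2.33 and 2.52, above the rest of 28S by 1.70 and 1.47.

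Past the 5′ end, eCLIP coverage of domain I had 2 broad maxima and a deep low. In the first maximum, replicate 1 peaked at 5900 reads at position 131 and replicate 2 at 1763 reads at position 149. Both had a local low at position 186, with 2949 and 1113 reads. In the second maximum both peaked at position 262, with 6530 and 1386 reads. The order of the maxima differed, the second being 1.11 times the first in replicate 1 and 0.786 times in replicate 2. Input had 7613 and 7478 reads as its maxima in the same stretches, a ratio of 0.982.

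**Figure D4:**
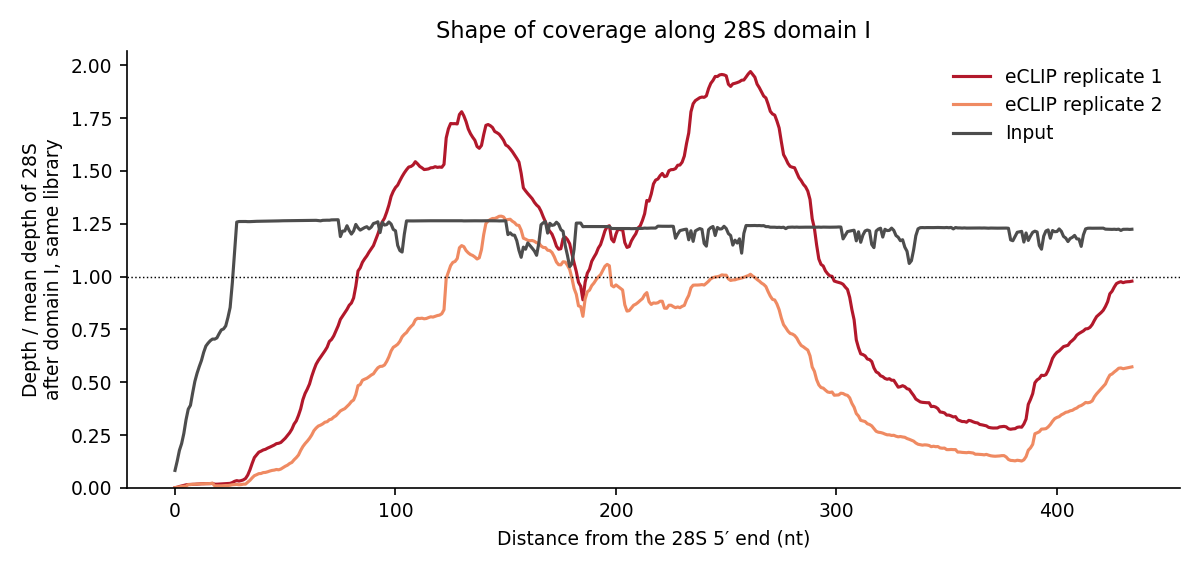
Depth at each position of 28S domain I divided by the mean depth of 28S after domain I in the same library, against the distance from the 28S 5′ end, with a dotted line at 1. Both eCLIP lines show maxima near 131 to 149 and at 262 and a low at 380 to 385. The Input line varies less from position 51 on, where its depth before the division was between 6303 and 7642 reads.

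The 4 windows between positions 100 and 300 cover these maxima. Their edgeR log2 fold changes were 0.91, 0.86, 0.86 and 0.80, and none of them passed (edgeR adjusted p between 0.233 and 0.25). No window of domain I was higher by edgeR, where 3.4% of all windows were higher. In edgeR's fit 2 domain I windows, the first and that ending at 400, had an unadjusted p under the threshold of 0.05, and both were lower. DESeq2's Wald test, in which 35.4% of all windows were higher, called these 4 windows higher (log2 fold changes from 0.96 to 1.07, DESeq2 adjusted p from 3.84e-05 to 0.00223). Among the 93 windows of 28S after domain I, 50 had a lower mean ratio than the window ending at 150, so the maxima lay near the middle of the range of 28S. In replicate 1 this window ranked 13 in mean depth among the 102 windows of 28S, and in replicate 2 it ranked 38.

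The low lay near the far end of domain I. Replicate 1 had its minimum of 919 reads at position 380 and replicate 2 its minimum of 174 reads at position 385. The second maximum was 7.11 and 7.97 times as deep, against 1.17 times in Input between its own maximum and minimum of those stretches. Over the 40 positions up to 390, the eCLIP libraries averaged 1033 and 216.3 reads and Input 7343, and the log2 ratio was -1.56 ± 0.359 (SD, n = 2), or 2.94-fold lower. This stretch was chosen after its values were seen.

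The window from 351 to 400 was lower by edgeR. It averaged 1192 and 251.2 reads in eCLIP and 7313 in Input, with an edgeR log2 fold change of -1.32 (adjusted p = 0.00319). It had the second lowest ratio of the windows of domain I, and 6 of the 93 windows after domain I were lower still. Its neighbour from 301 to 350 had log2 ratios of -0.42 and -0.98 and did not pass (edgeR adjusted p = 0.147). Positions 51 to 100 had 0.01 and -0.61 and did not pass either (edgeR adjusted p = 0.548). The window ending at 450, which crosses the end of domain I, had 0.17 and -0.17 (edgeR adjusted p = 0.985). In all, 2 of the 8 windows of domain I were lower, or 25%, against 10 of 93 windows of 28S after domain I, or 10.8%, and the 34.7% of all windows. In windows of 25 nt, 6 of the 17 of domain I and all 7 of 5.8S were lower, where 36.6% of all were lower and 7.59% higher. In windows of 100 nt, 2 of the 4 of domain I and both of 5.8S were lower, where 33.8% of all were lower and 17.6% higher.

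Single steps of depth were shared by the eCLIP replicates. The largest rise of both within domain I was at position 124, from 5074 to 5489 reads in replicate 1 and from 1156 to 1359 in replicate 2, where Input went from 7612 to 7613. At position 199, 75 nt later, the step was -210 and -127 reads, and -55 in Input. A second shared rise was at position 187, by 276 and 112 reads against 4 in Input. It had no matching fall 75 nt later, where the net steps at position 262 were 37 and 9 reads upward. At position 235 replicate 1 gained 331 reads and replicate 2 gained 49, and there Input gained 258. Input had fallen from 7374 reads at position 233 to 7070 at 234, and after 7328 at 235 it fell to 7025 at 236. Its gain was thus a return from a dip and did not last, while replicate 1 went on from 5898 to 6025 reads at 236. The rises at 124 and 187 were thus seen in the eCLIP libraries with next to none in Input. At 235 Input had a step up but no lasting rise. Input held 7613 reads at 124 and 7448 at 187, near its highest depth of domain I. If its depth was limited there, it could not show such a step. Whether these rises are particular to eCLIP was not tested.

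Across the 385 positions of domain I from 51 on, depth of the eCLIP replicates had a Pearson's r of 0.892 and a Spearman's rho of 0.889. Between eCLIP and Input r was 0.0949 for replicate 1 and 0.0347 for replicate 2. If Input depth was limited, its profile was flattened, and r with Input cannot show how unlike the libraries are. Across the positions of 5.8S the order was different, with r = 0.512 between the eCLIP replicates, 0.887 between replicate 1 and Input and 0.146 between replicate 2, with its 4 reads, and Input. Neighbouring positions lie under the same reads, so these values describe the profiles only.

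In the annotation of GRCh38, 1 of 5 genes for 28S, RNA28SN5, has the table's length of 5070 nt, and none of the 5 genes for 5.8S has the length of its 5.8S. The copies are nearly identical, so reads cannot be assigned to 1 of them, and positions are given along the rRNAs rather than the genome.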

How the data were processed

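Counts per position of 4 rRNAs in 3 libraries were deposited by the authors without scaling, per the file headers. They were read as depths. Per the submitters' processing notes, STAR and hg19 were used, with no version stated. Neither duplicate removal nor a limit on depth is stated. Columns of immunoprecipitates 1 and 2 were taken as the eCLIP samples of those numbers.

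Depths were summed in 50-nt windows from position 1 of each rRNA, so a read enters a window once per position covered. eCLIP was tested against Input on all 147 windows with edgeR 4.0.16 in R 4.3.3 (quasi-likelihood test, TMM, filterByExpr, Benjamini-Hochberg, 0.05), with 1 residual degree of freedom from the eCLIP pair. The prior degrees of freedom were infinite, so a window's own spread between the eCLIP libraries had no weight. The script was tested on simulated data with independent windows. The windows here share reads, so that test does not show how reliable the calls are. Log2 ratios used TMM scaling and a pseudocount of 1. Over all windows, edgeR's median log2 fold change was -0.16 under TMM, -0.58 under library totals, -0.98 under the 28S total, -0.38 under 5S and 0.0057 under DESeq2 1.42.0 size factors. Windows lying wholly within domain I count as its windows. Named were all windows of both stretches, set positions, extremes and the 3 largest steps in each direction. Members and lists were chosen with earlier results of these data known.

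Alternatives were those scalings, DESeq2, no filter, windows of 25 and 100 nt, the middle position, depth divided by 75, medians, another pseudocount, other bounds and each eCLIP replicate left out.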

Additional observations from a re-analysis of the deposited data

How the results depend on the processing

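The log2 ratio of 5.8S, -4.92, was -5.36 with library totals and -5.76 with the 28S total. That of domain I, 0.22, reversed to -0.22 with library totals, -0.63 with the 28S total and -0.014 with 5S. Domain I minus 5.8S, 5.14, was 5.31 with the first 75 nt of domain I left out. Domain I minus the rest of 28S, -0.68, was -5.52 over positions with Input under 4000, an alternative chosen after seeing the data, which by construction leaves only positions 1 to 14 of domain I. The first 50 nt minus the rest of domain I, -3.62, was -5.14 at the middle position, -4.57 with 25 nt, -2.27 with 75 nt and -4.76 with 32 nt, the last chosen after seeing the data. The difference between the 28S and 18S 5′ ends, -1.74, was -3.61 at the middle position and -0.68 with 75 nt, and -5.73 with the 28S 3′ end in place of the 18S 5′ end, also chosen after seeing the data. The cause was not tested, beyond the change of positions itself.

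With 1 eCLIP replicate left out, the values were those of the other: -5.12 to -4.71 for 5.8S, 0.08 to 0.36 for domain I, -1.06 to -0.30 for domain I minus the rest of 28S, 5.07 to 5.20 for domain I minus 5.8S, -3.81 to -3.44 for the first 50 nt and -2.28 to -1.19 for the 5′ ends. No window test is possible then, for lack of residual degrees of freedom. Lower windows of 5.8S, 4, numbered 7 with 25-nt and 2 with 100-nt windows, in each case all of them. Lower windows of domain I, 2, numbered 6 with 25-nt windows, and higher windows, 0, numbered 4 with DESeq2's Wald test, in the single setting with any. The window ending at 450, 0.01, reversed to -0.40, -0.80 and -0.22 with library totals, the 28S total and 5S, never passing. Of 104 results for single windows under alternatives, 97 kept their direction and call, 4 gained a call with DESeq2 and 3 reversed. The filter removed 0 windows, so the results without it, counted among the 97, repeat the main ones and are no separate check. No paired analysis was possible because the Input group has a single library without a number. Depth limits 5.8S in eCLIP, at 18 and 4 reads, and the first 50 nt of 18S, at about 9 and 2 reads.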
